A study of Mus musculus with 18 samples.

Results

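Purinergic and adenosine receptors, with 1 ectoenzyme that converts ATP and ADP to AMP, were described in RAW 264.7 macrophages from 9 genes selected by name: *P2rx4*, *P2rx7*, *P2ry2*, *P2ry6*, *P2ry13*, *P2ry14*, *Adora2a*, *Adora2b* and *Entpd1*. These were 9 of the 56748 genes in the expression table, of which 27701 had a count in at least 1 library. After low counts were filtered, 7 of the 9 were among the 13691 genes tested, and *P2ry13* and *P2ry14* were not. Stressed, activated or dying cells release ATP and other nucleotides, which macrophages sense through P2X receptors, cation channels opened by ATP, and P2Y receptors, which couple to G proteins. Ectoenzymes at the cell surface strip the phosphates from these nucleotides, and the adenosine that remains acts on its own G protein-coupled receptors. In macrophages the P2rx7 channel is best known for triggering the NLRP3 inflammasome, whereas the Gs-coupled adenosine receptors raise cAMP and are known to dampen inflammatory cytokine output.

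Levels of poly(A) mRNA were compared to ask how *tert*-butylhydroquinone (TBHQ), a synthetic food antioxidant that activates the transcription factor Nrf2, alters the response of macrophages to bacterial and viral stimuli. RAW 264.7 is an immortalized mouse macrophage line, so every library came from the same line. There were 18 libraries in 6 conditions, with 3 per condition, which the study's methods call biological replicates. Control cells were kept in medium without further treatment, and TBHQ cells received 5 µM TBHQ for 4 h. LPS cells received 0.1 µg/mL lipopolysaccharide, a ligand of Toll-like receptor 4, for 12 h, and PIC cells received 20 µg/mL polyinosinic:polycytidylic acid, a double-stranded RNA mimic, for 12 h. In LPS + TBHQ and PIC + TBHQ cells, TBHQ at 5 µM came first, over 4 h, and the stimulus followed over 12 h.

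The libraries held between 14423390 and 18851626 counts, with a median of 15742337.5, so that 3 counts, the upper limit that a count of 0 allows, equalled 0.159 to 0.208 CPM, counts scaled to library size. Of 9 macrophage markers, 9 were detected in every library, at a summed level of 8747 to 10626 CPM. The most abundant was *Lyz2*, with 61055 to 99994 counts. Single markers varied by condition. *Adgre1* reached from 636 counts in a TBHQ library to 3561 in a PIC library, and *Csf1r* from 17226 in a TBHQ library to 6539 in a PIC library. Markers of other cell types were at or near 0. *Cd3e* and *Cd8a* of T cells, *Mcpt4* of mast cells and *Krt8* and *Krt18* of epithelial cells had 0 counts in the 18 libraries. The summed lists reached at most 0.372 CPM for 4 T cell markers, 0.314 CPM for 2 mast cell markers, 0.690 CPM for 3 microglial markers, 0.621 CPM for 3 fibroblast markers, 0.0643 CPM for 3 epithelial markers and 0.430 CPM for 2 endothelial markers. The list of 2 dendritic cell markers lay between 0.684 and 1.59 CPM, almost all of it *Zbtb46* at 11 to 26 counts.

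Levels were compared on the length-normalized FPKM scale. FPKM are fragments scaled to gene length and library size and, as deposited, multiplied by a further constant per library. On this scale, untreated cells expressed *P2ry6* and *P2ry2* most highly among the 9 genes. Mean control levels were 9.73 ± 1.00 FPKM (SD, n = 3) for *P2ry6* and 5.38 ± 0.530 FPKM for *P2ry2*, followed by 4.53 ± 0.248 FPKM for *P2rx4*, 3.96 ± 0.504 FPKM for *P2rx7* and 1.83 ± 0.483 FPKM for *Adora2b*. *Adora2a* averaged 0.109 ± 0.0859 FPKM and *Entpd1* 0.0803 ± 0.0317 FPKM. In PIC that order differed, with *Adora2b* libraries at 15.7 to 17.3 FPKM above *P2ry2* libraries at 11.2 to 11.6 FPKM. The constant was 0.943 to 0.951 in control and 1.11 to 1.12 in PIC, where the TMM factors were 1.06 to 1.07 and 0.911 to 0.915, so deposited FPKM are not scaled to total counts alone. Fewer cells of a type and less RNA per cell cannot be told apart in such bulk measurements.

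*P2rx4* and *P2rx7* moved in opposite directions in LPS and in PIC. *P2rx4* encodes an ATP-gated channel that is abundant on endolysosomal membranes of macrophages. Its FPKM in the 3 libraries were 4.25, 4.72 and 4.62 in control, 4.02, 4.19 and 3.84 in TBHQ, 6.24, 5.84 and 5.39 in LPS and 6.39, 6.59 and 5.86 in PIC. The pretreated cells gave 6.03, 6.41 and 6.0 FPKM in LPS + TBHQ and 6.18, 6.90 and 6.97 FPKM in PIC + TBHQ. All 12 stimulated libraries lay above all 6 unstimulated ones, while the 4 stimulated conditions overlapped their neighbours in the order LPS, LPS + TBHQ, PIC and PIC + TBHQ. The log2 difference from control was 0.35 in LPS (95% interval 0.21 to 0.49, edgeR adjusted p = 4.74e-05) and 0.45 in PIC (0.31 to 0.59, edgeR adjusted p = 5.02e-07), with each stimulated library above each control library. It was 0.43 in LPS + TBHQ and 0.55 in PIC + TBHQ (edgeR adjusted p = 1.86e-06 and 8.91e-09), again with 3 of 3 libraries higher. Scaling by total library size moved the PIC difference to 0.23. The 3 TBHQ libraries lay below the 3 control libraries, at a log2 difference of −0.18 (−0.32 to −0.03) that missed the threshold of 0.05 (edgeR adjusted p = 0.0569) and passed it without control replicate 1 (−0.22, edgeR adjusted p = 0.0347). With TBHQ no difference in *P2rx4* was called within LPS (0.08, 95% interval −0.06 to 0.21, and 0.02 to 0.13 over the fits that left out 1 library) or within PIC (0.10, −0.03 to 0.24, and 0.04 to 0.15 over those fits, called only with total library size at 0.17, edgeR adjusted p = 0.0399), and PIC minus LPS was 0.10 (−0.04 to 0.23, 0.05 to 0.15 over those fits, and −0.03 with total library size).

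*P2rx7* encodes the low-affinity ATP receptor whose opening lets potassium leave the cell. Its FPKM were 3.40, 4.39 and 4.08 in control, 4.26, 4.87 and 4.53 in TBHQ, 3.16, 3.22 and 3.01 in LPS and 2.97, 2.70 and 2.74 in PIC. With pretreatment they were 3.30, 3.38 and 3.74 in LPS + TBHQ and 3.34, 3.32 and 3.31 in PIC + TBHQ. The means fell in the order TBHQ, control, LPS + TBHQ, PIC + TBHQ, LPS and PIC, and the libraries of the first 4 conditions overlapped between neighbours. Relative to control, *P2rx7* fell by 0.35 on the log2 scale in LPS (95% interval −0.53 to −0.17, edgeR adjusted p = 0.00112) and by 0.52 in PIC (−0.70 to −0.34, edgeR adjusted p = 4.63e-06), each in 3 of 3 libraries. PIC minus LPS was −0.17 (−0.36 to 0.02), a difference called only with total library size (−0.30, edgeR adjusted p = 0.0098), although the 3 PIC libraries lay below the 3 LPS libraries.

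With TBHQ before PIC, *P2rx7* stood above PIC alone in 3 of 3 libraries, by 0.26 on the log2 scale (0.07 to 0.44, edgeR adjusted p = 0.0282). That call was weak. It was lost with DESeq2 (0.25, adjusted p = 0.0718), with no filter on low counts (edgeR adjusted p = 0.0508) and with limma on log2(FPKM + 1) (0.19, adjusted p = 0.0523). It was also lost in edgeR without PIC replicate 2 (0.22, adjusted p = 0.117), PIC replicate 3 (0.23, 0.108), PIC + TBHQ replicate 1 (0.25, 0.073), PIC + TBHQ replicate 2 (0.25, 0.0633) or PIC + TBHQ replicate 3 (0.26, 0.0662). Within LPS the corresponding difference was 0.15 (−0.03 to 0.33, and 0.09 to 0.19 over the fits that left out 1 library) and was not called, with the LPS + TBHQ libraries all above the LPS libraries. PIC + TBHQ minus control was −0.26 (−0.44 to −0.09, edgeR adjusted p = 0.0109) with 3 of 3 libraries lower, a call lost without control replicate 2 (−0.18, edgeR adjusted p = 0.116) and a value of −0.41 with total library size. LPS + TBHQ minus control was −0.20 (−0.37 to −0.03, edgeR adjusted p = 0.0536), which overlapped between groups and passed the threshold without control replicate 1 (−0.30, edgeR adjusted p = 0.0061) or LPS + TBHQ replicate 3 (−0.26, 0.028), and with total library size (−0.26, 0.0101), and was −0.12 without control replicate 2. TBHQ alone minus control was 0.20 (0.03 to 0.36, edgeR adjusted p = 0.0702), which passed without control replicate 2 (0.28, 0.0243) or TBHQ replicate 1 (0.24, 0.0482) and was 0.10 without control replicate 1.

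Of the P2Y receptors, *P2ry2*, a Gq-coupled receptor for ATP and UTP, was higher under every treatment. Its FPKM were 5.99, 5.08 and 5.06 in control, 6.84, 6.07 and 7.45 in TBHQ, 8.96, 8.88 and 9.28 in LPS and 11.2, 11.6 and 11.2 in PIC. LPS + TBHQ libraries gave 10.8, 9.55 and 10.5 FPKM, and PIC + TBHQ libraries 12.1, 13 and 11.7 FPKM. In the order control, TBHQ, LPS, LPS + TBHQ, PIC and PIC + TBHQ, no library of one condition reached into the next. *P2ry2* rose by 0.34 log2 units in TBHQ (0.18 to 0.50, edgeR adjusted p = 0.00101), by 0.74 in LPS (0.59 to 0.90, 1.67-fold, edgeR adjusted p = 3.07e-10) and by 1.06 in PIC (0.90 to 1.21, 2.08-fold, edgeR adjusted p = 1.15e-14), in 3 of 3 libraries each. It stood 0.93 above control in LPS + TBHQ and 1.19 above control in PIC + TBHQ (edgeR adjusted p = 8.74e-13 and 4.81e-16, 3 of 3 libraries higher), and 0.31 higher in PIC than in LPS (0.17 to 0.46, edgeR adjusted p = 0.0009, and 0.18 with total library size). The differences with TBHQ within a stimulus were smaller and not called, at 0.18 within LPS (0.04 to 0.33, edgeR adjusted p = 0.0581) and 0.13 within PIC (−0.01 to 0.27, and 0.08 to 0.15 over the fits that left out 1 library). The former passed the threshold without LPS + TBHQ replicate 2 (0.23, edgeR adjusted p = 0.0297), and, at 0.18, without control replicate 1, TBHQ replicate 2 or TBHQ replicate 3, with the compared conditions only (edgeR adjusted p = 0.0458) and, at 0.20, with no filter on low counts. The range over all fits that left out 1 library was 0.15 to 0.23. With total library size both differences were called, at 0.21 within LPS and 0.20 within PIC (edgeR adjusted p = 0.0278 and 0.0215).

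*P2ry6* encodes a Gq-coupled receptor for UDP that has been linked to phagocytosis. Its FPKM were 10.4, 10.2 and 8.59 in control, 9.90, 10.6 and 11.2 in TBHQ, 9.33, 10.3 and 11.4 in LPS and 10.4, 9.32 and 9.20 in PIC. With pretreatment they were 8.60, 8.57 and 8.98 in LPS + TBHQ and 7.42, 7.70 and 8.08 in PIC + TBHQ. The first 4 conditions overlapped, LPS + TBHQ overlapped control but not TBHQ, LPS or PIC, and the PIC + TBHQ libraries lay below the other 15. No call was made for TBHQ (log2 difference from control 0.12, 95% interval −0.04 to 0.28, and 0.03 without control replicate 3 or 0.07 without TBHQ replicate 3), LPS (0.08, −0.08 to 0.25, and −0.01 with total library size) or PIC (−0.03, −0.20 to 0.13). With total library size the PIC difference was −0.25 and was called (edgeR adjusted p = 0.00709). TBHQ before the stimulus was followed by a lower level than the stimulus alone, by −0.30 within PIC (−0.48 to −0.13, edgeR adjusted p = 0.00494) and −0.25 within LPS (−0.41 to −0.08, edgeR adjusted p = 0.0227), with 3 of 3 libraries lower. The LPS call was lost without LPS replicate 2 (−0.25, edgeR adjusted p = 0.0526), LPS replicate 3 (−0.17, 0.17), LPS + TBHQ replicate 1 (−0.24, 0.0673) or LPS + TBHQ replicate 2 (−0.24, 0.0713). Compared with control, PIC + TBHQ was lower by −0.34 (−0.50 to −0.17, edgeR adjusted p = 0.000856, 3 of 3 libraries), whereas LPS + TBHQ gave −0.17 (−0.33 to −0.00, edgeR adjusted p = 0.0955), which passed without control replicate 3 (−0.25, 0.018) and with total library size (−0.23, 0.0176) and was −0.11 without control replicate 1. PIC minus LPS was −0.11 (−0.28 to 0.05, with −0.18 to −0.03 over the fits that left out 1 library), and −0.24 with total library size (edgeR adjusted p = 0.0165).

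*Adora2b* encodes the low-affinity Gs-coupled adenosine receptor. Its FPKM were 2.01, 2.20 and 1.28 in control, 3.18, 3.05 and 3.31 in TBHQ, 8.43, 8.61 and 8.03 in LPS and 15.7, 16.0 and 17.3 in PIC. With TBHQ pretreatment the values were 4.86, 3.20 and 5.19 FPKM in LPS + TBHQ and 8.68, 9.19 and 8.14 FPKM in PIC + TBHQ. Ordered by mean, control (1.83 ± 0.483) came lowest, then TBHQ (3.18 ± 0.129), LPS + TBHQ (4.42 ± 1.07), LPS (8.36 ± 0.292), PIC + TBHQ (8.67 ± 0.525) and PIC (16.3 ± 0.835 FPKM, SD, n = 3). Libraries overlapped between TBHQ and LPS + TBHQ and between LPS and PIC + TBHQ, and at no other step of that order. *Adora2b* rose 1.74-fold in TBHQ (log2 difference 0.80, 0.45 to 1.15, edgeR adjusted p = 0.000452), 4.55-fold in LPS (2.19, 1.88 to 2.49, edgeR adjusted p = 1.06e-14) and 8.85-fold in PIC (3.15, 2.86 to 3.43, edgeR adjusted p = 1.73e-20), in 3 of 3 libraries each. PIC exceeded LPS 1.94-fold (0.96, 0.73 to 1.19, edgeR adjusted p = 2.3e-08).

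TBHQ, which by itself was accompanied by a higher *Adora2b* level, was followed by a lower level when a stimulus came after it. LPS + TBHQ lay below LPS by −0.92 on the log2 scale (−1.18 to −0.66, 1.89-fold, edgeR adjusted p = 8.19e-07), and PIC + TBHQ lay below PIC by −0.91 (−1.13 to −0.68, 1.87-fold, edgeR adjusted p = 4.48e-08), with 3 of 3 libraries lower in each case. The pretreated cells still exceeded control, 2.41-fold in LPS + TBHQ (1.27, 0.94 to 1.60, edgeR adjusted p = 4.66e-08) and 4.73-fold in PIC + TBHQ (2.24, 1.94 to 2.54, edgeR adjusted p = 3.14e-15), in 3 of 3 libraries. The TBHQ difference within PIC minus that within LPS was 0.01 (−0.33 to 0.35, edgeR adjusted p = 0.983), with a sign that changed with the normalization.

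*Adora2a*, the high-affinity Gs-coupled adenosine receptor, was barely detected without a stimulus. Counts were 9, 1 and 6 in the control libraries, 5, 4 and 4 in TBHQ, 17, 11 and 17 in LPS, 6, 11 and 24 in LPS + TBHQ, 38, 50 and 97 in PIC and 42, 38 and 40 in PIC + TBHQ. In FPKM the means were 0.109 ± 0.0859, 0.0841 ± 0.0102, 0.343 ± 0.0804, 0.260 ± 0.169, 1.32 ± 0.497 and 0.860 ± 0.0410 in the same order of conditions (SD, n = 3). Libraries with PIC lay above all those without it, and LPS + TBHQ overlapped both control and LPS. *Adora2a* was 12.0-fold higher in PIC than in control (log2 difference 3.58, 2.73 to 4.42, edgeR adjusted p = 2.75e-09), 7.78-fold higher in PIC + TBHQ (2.96, 2.07 to 3.85, edgeR adjusted p = 5.13e-07) and 3.84-fold higher in PIC than in LPS (1.94, 1.24 to 2.65, edgeR adjusted p = 3.83e-05), in 3 of 3 libraries. LPS gave a 3.11-fold higher level than control (1.64, 0.60 to 2.68, edgeR adjusted p = 0.00809, 3 of 3 libraries).

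These *Adora2a* ratios rested on few control counts. Without control replicate 1 they were 2.27 in LPS, 4.21 in PIC and 3.59 in PIC + TBHQ on the log2 scale, and without control replicate 2 the LPS difference was 1.15 and was not called (edgeR adjusted p = 0.0688). On the log2(FPKM + 1) scale, which compresses low levels, limma gave 0.28 for LPS (adjusted p = 0.0674, not called), 1.05 for PIC, 0.75 for PIC + TBHQ and 0.77 for PIC minus LPS. LPS + TBHQ minus control was 1.25 (0.19 to 2.32, edgeR adjusted p = 0.0511), a value that passed the threshold without control replicate 1 (1.88, edgeR adjusted p = 0.0174), LPS + TBHQ replicate 1 (1.60, 0.0143), LPS replicate 2 (1.27), PIC replicate 1 (1.27) or PIC replicate 3 (1.26), and with no filter on low counts (edgeR adjusted p = 0.0265), but was 0.61 without LPS + TBHQ replicate 3. TBHQ minus control was −0.35 (−1.69 to 0.99). Within LPS the TBHQ difference was −0.38 (−1.26 to 0.49, with −0.04 without LPS + TBHQ replicate 1 and −1.03 without LPS + TBHQ replicate 3), and within PIC it was −0.62 (−1.23 to −0.01, edgeR adjusted p = 0.118), where the 3 PIC + TBHQ libraries lay below the 3 PIC libraries in FPKM without the difference being called. Leaving out PIC replicate 3 moved it to −0.28 and leaving out PIC replicate 1 to −0.84.

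**Figure D1:**
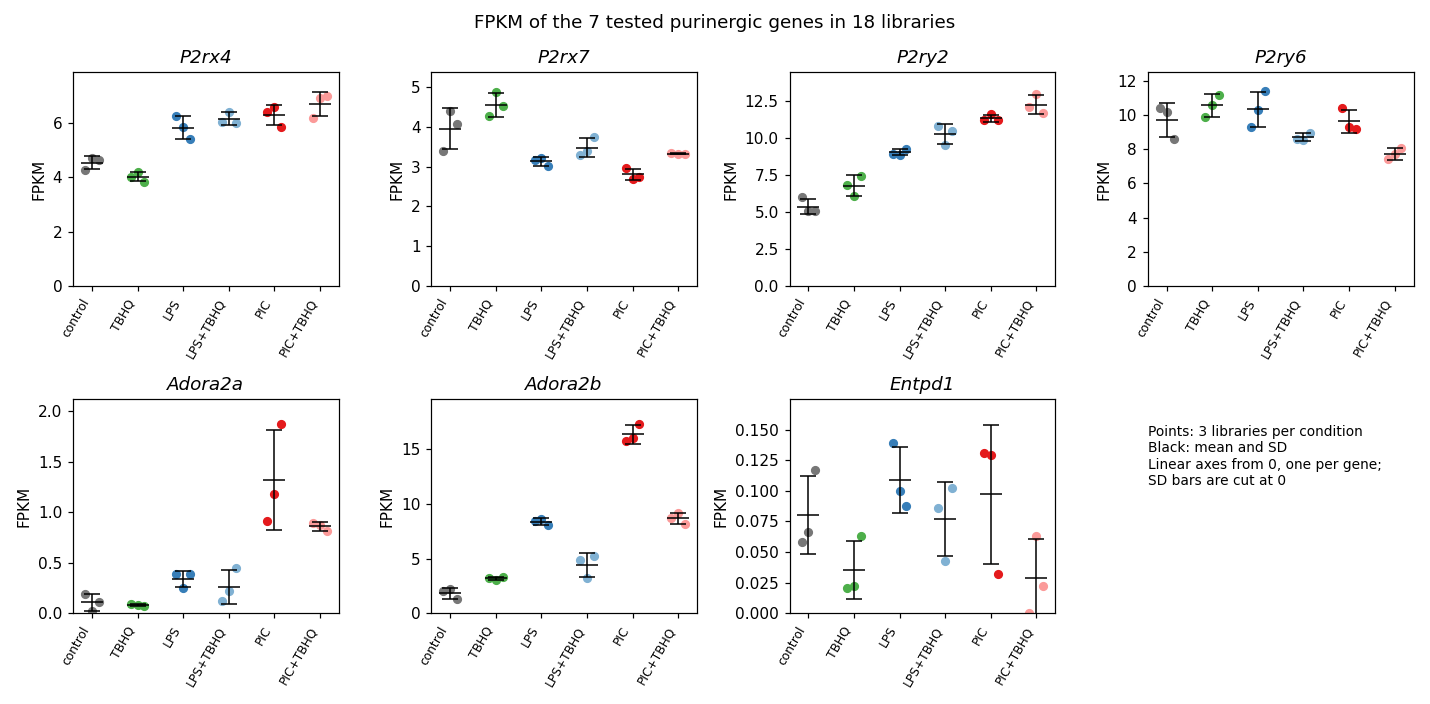
FPKM (vertical axis, linear from 0, 1 scale per gene) of the 7 tested genes in each of the 18 libraries, by condition (horizontal axis); points are libraries and black bars give the mean and SD of 3. *Adora2b* rises from a control mean of 1.83 to 16.3 in PIC and 8.67 in PIC + TBHQ, while *P2ry6* is lowest in PIC + TBHQ, at 7.42 to 8.08.

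The remaining genes were near or under the detection limit. *Entpd1* encodes CD39, the ectoenzyme that converts ATP and ADP to AMP. It had 5, 6 and 11 counts in control, 2, 2 and 6 in TBHQ, 11, 8 and 7 in LPS, 8, 4 and 10 in LPS + TBHQ, 10, 10 and 3 in PIC and 0, 5 and 2 in PIC + TBHQ. All conditions compared overlapped and no difference was called. The intervals were wide, from −0.71 to 1.54 for LPS minus control and from −0.96 to 1.34 for PIC minus control. PIC + TBHQ gave −1.51 against control (−2.97 to −0.05, edgeR adjusted p = 0.0758) and −1.70 against PIC (−3.15 to −0.26, edgeR adjusted p = 0.0656). Without PIC + TBHQ replicate 2 both passed the threshold, at −2.69 and −2.89 (edgeR adjusted p = 0.0188 and 0.0191), and the latter also passed without PIC replicate 3 (−2.18, 0.018). Without PIC + TBHQ replicate 1, the library with 0 counts, they were −0.94 and −1.14 and not called. With total library size the difference from control was called too (−1.66, edgeR adjusted p = 0.0468). *Entpd1* overlaps the pseudogenes *Gm8783* and *Gm16027* on the same strand, which had 8 to 20 and 0 to 2 counts, so its level is uncertain. *P2ry13*, a Gi-coupled ADP receptor, had 0 counts in the 18 libraries, which allows up to 3 counts in each. *P2ry14*, a Gi-coupled receptor for UDP-glucose, had 0, 2 and 1 counts in control, 1 count in 1 PIC library and 0 elsewhere, so no ratio was formed for either gene.

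Counted over the 7 genes tested by edgeR at an adjusted p below 0.05, LPS was accompanied by 4 higher genes (*P2rx4*, *P2ry2*, *Adora2a* and *Adora2b*) and 1 lower gene (*P2rx7*), where 24.0% and 24.1% of all 13691 genes tested were higher and lower. In PIC there were likewise 4 higher and 1 lower, against 28.6% and 30.1% of all genes tested. At the study's own threshold, an adjusted p below 0.01 with an absolute log2 difference above 2, 1 of 7 genes passed in LPS (*Adora2b*) against 1.64% of all, and 2 of 7 in PIC (*Adora2a* and *Adora2b*) against 3.57%. TBHQ alone had 2 higher genes (*P2ry2* and *Adora2b*) and left 5 uncalled, against 14.2% higher and 14.8% lower among all genes. LPS + TBHQ against control had 3 higher and 4 uncalled (21.2% higher and 22.5% lower among all), and PIC + TBHQ against control 4 higher and 2 lower (26.4% and 26.0%). The median log2 difference of the 7 genes from control was 0.12 in TBHQ, 0.41 in LPS, 0.45 in PIC, 0.43 in LPS + TBHQ and 0.55 in PIC + TBHQ, where the median of all genes tested lay between −0.01 and −0.00. These 5 comparisons share the control libraries.

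Within a stimulus, TBHQ was accompanied by 2 lower genes in LPS (*P2ry6* and *Adora2b*) with 5 uncalled, against 11.7% higher and 12.2% lower among all genes tested. Within PIC, 1 gene was higher (*P2rx7*) and 2 were lower (*P2ry6* and *Adora2b*), against 15.8% and 15.5%. The medians of the 7 genes were −0.25 within LPS and −0.30 within PIC, compared with 0.00 and 0.01 over all genes. PIC against LPS had 3 higher genes (*P2ry2*, *Adora2a* and *Adora2b*) and 4 uncalled, against 14.9% higher and 12.8% lower, with a median of 0.10 compared with −0.01. Whether the TBHQ difference itself differed between PIC and LPS was tested by an interaction term. edgeR called 0 of 7 genes, with 0 at an unadjusted p below 0.05, and DESeq2 and limma also called 0, where 0.833% and 1.01% of all genes tested were called in the positive and negative direction. The interaction estimates had intervals of −0.16 to 0.22 for *P2rx4*, −0.15 to 0.37 for *P2rx7*, −0.25 to 0.15 for *P2ry2*, −0.29 to 0.18 for *P2ry6*, −0.33 to 0.35 for *Adora2b* and −1.32 to 0.84 for *Adora2a*, and that of *Entpd1* reached from −3.07 to 0.63.

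Scaling by total library size in place of TMM moved the median log2 difference of all genes by −0.22 for PIC against control, −0.15 for PIC + TBHQ against control and −0.13 for PIC against LPS. The percentage of called genes that were higher then went from 48.7 to 26.4, from 50.4 to 30.0 and from 53.7 to 18.4 in these comparisons, from 49.8 to 35.0 in LPS and from 48.4 to 36.1 in LPS + TBHQ against control. Within LPS and within PIC it went from 48.9 to 59.5 and from 50.6 to 70.3. For the interaction it was 45.2 with TMM, 76.1 with total library size, 35.1 with RLE size factors and 29.7 with DESeq2. All differences given here are relative to TMM scaling unless another scale is named.

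**Figure D2:**
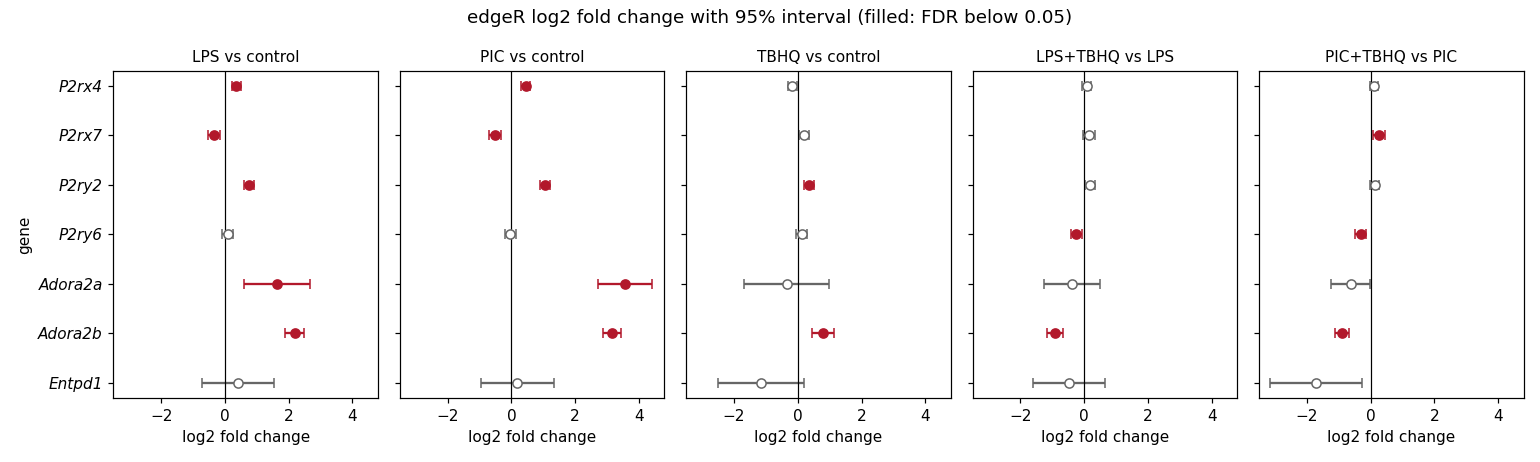
Log2 fold change (horizontal axis) of the 7 tested genes (vertical axis) in 5 comparisons, 1 panel each, with points for the edgeR estimate, bars for the 95% interval and filled points for an adjusted p below 0.05. *Adora2b* stands at 2.19 in LPS and 3.15 in PIC, and at −0.92 and −0.91 where TBHQ preceded the same stimulus.

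Other genes of the purinergic system were read from lists by role. Their counts stand against shares of all genes tested that were higher and lower of 14.2% and 14.8% in TBHQ, 24.0% and 24.1% in LPS, 28.6% and 30.1% in PIC, 11.7% and 12.2% with TBHQ within LPS and 15.8% and 15.5% with TBHQ within PIC. Of 7 P2X genes, 3 were tested, and beside the 2 already described *P2rx5*, chosen for mention after its values were seen, averaged 0.651 to 1.10 FPKM and was not called in any comparison. The list had 1 higher and 1 lower gene in LPS and in PIC, with medians of 0.04 and −0.15. Of 9 P2Y genes, 3 were tested, and 2 were higher in both LPS and PIC and 2 were lower with TBHQ within each stimulus. The additional gene, *P2ry10b*, also named after its values were seen, averaged 9.48 ± 0.459 FPKM in control, 7.62 ± 0.530 in TBHQ, 14.9 ± 1.38 in LPS, 10.5 ± 0.655 in LPS + TBHQ, 18.5 ± 1.26 in PIC and 11.5 ± 0.447 in PIC + TBHQ. *P2ry10b* was 1 of the 2 P2Y genes called in LPS, in PIC and with TBHQ within each stimulus. It carries a P2Y name, but whether it responds to nucleotides was not tested. The counts of the P2Y list therefore need not describe nucleotide receptors alone. *P2ry10b* was lower in TBHQ alone (−0.32, edgeR adjusted p = 0.00112, 3 of 3 libraries). It rose by 0.64 in LPS and 0.95 in PIC and was lower with TBHQ by −0.51 within LPS and −0.68 within PIC (edgeR adjusted p = 1.21e-09, 2.11e-14, 4.68e-07 and 4.61e-10, 3 of 3 libraries each). Medians of the P2Y list were 0.64 in LPS, 0.95 in PIC, −0.25 within LPS and −0.30 within PIC. Those in LPS and PIC are the values of *P2ry10b* itself, which lay between *P2ry2* (0.74 and 1.06) and *P2ry6* (0.08 and −0.03). Of 4 adenosine receptor genes, 3 were tested, 2 were higher in LPS and in PIC and 1 was lower with TBHQ within each stimulus, with medians of 1.64, 3.15, −0.38 and −0.62. *Adora3*, the uncalled gene of that list, named after its values were seen, had 3 to 13 counts. All of these medians compare with −0.01 to 0.01 over all genes tested.

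Of 10 enzymes that break down nucleotides or NAD outside the cell, 2 were tested, *Entpd1* and *Bst1*. *Nt5e*, which encodes CD73 and makes adenosine from AMP, had 0 to 6 counts, and *Cd38* had 0 in the 18 libraries. *Bst1*, an NAD-consuming ectoenzyme related to CD38, averaged 10.9 ± 0.692 FPKM in control (SD, n = 3) and was lower in TBHQ (−0.44) and higher in LPS (0.53) and PIC (0.67), and TBHQ within a stimulus gave 0.05 and 0.07, neither of them called by edgeR. *Nt5e*, *Cd38* and *Bst1* were chosen for mention after their values were seen. The medians over the pair tested were −0.80 in TBHQ, 0.47 in LPS and 0.43 in PIC, and −0.22 with TBHQ within LPS and −0.82 within PIC. Each also rests on the uncalled, low-count *Entpd1*, which gave −1.16 in TBHQ.

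For adenosine removal and transport, 7 of 7 listed genes were tested, by mRNA level only. The concentrative nucleoside transporter *Slc28a2* rose by 1.17 in LPS and 1.44 in PIC, and *Pnp*, the purine nucleoside phosphorylase, by 0.83 and 1.21 (edgeR adjusted p = 9.25e-18, 7.17e-21, 2.25e-13 and 1.67e-18, 3 of 3 libraries each). Lower in both stimuli were the equilibrative transporters *Slc29a2* (−0.66 and −1.06) and *Slc29a1* (−0.61 and −0.76), the deaminase gene *Ada* (−0.57 and −0.62) and the kinase gene *Adk* (−0.37 and −0.44), so that 2 genes were higher and 4 lower in each, with medians of −0.37 and −0.44. *Slc29a1*, *Ada* and *Adk* were picked for mention after their values were seen. TBHQ before the stimulus left *Slc28a2* lower by −0.90 within LPS and −1.22 within PIC and *Pnp* by −0.68 and −0.67 (edgeR adjusted p = 3.3e-14, 7.84e-18, 8.26e-11 and 5.11e-11, 3 of 3 libraries each). The list had 3 higher and 2 lower genes with TBHQ within LPS and 2 of each within PIC, with medians of 0.19 and 0.04. The 5 calls within LPS became 3 without LPS replicate 2 or LPS + TBHQ replicate 3. Of those within PIC, *Slc29a2* (0.60, edgeR adjusted p = 0.00864) lost its call without PIC replicate 2 (0.47) or PIC + TBHQ replicate 2 (0.46), and *Slc29a1* (0.19) without PIC replicate 1 (0.16). TBHQ alone had 2 lower genes, *Slc28a2* (−0.86) and *Pnp* (−0.24, and −0.17 without TBHQ replicate 2, which was not called), with a median of 0.01.

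For nucleotide release, 6 of 7 listed genes were tested, by mRNA level only. In LPS 3 were higher, and in PIC 3 were higher and 2 lower, with medians of 0.45 and 0.41. Of these, *Panx1* in LPS was not called without LPS replicate 3 (0.19), nor *Abcc4* in PIC without PIC replicate 2 (−0.15). *Lrrc8a*, a subunit of volume-regulated anion channels, rose by 0.69 in LPS and 1.09 in PIC (edgeR adjusted p = 0.000779 and 3.75e-07, 3 of 3 libraries). The connexin gene *Gja1* was called in PIC (1.72, edgeR adjusted p = 0.00131) at 12, 27 and 20 counts against 8, 8 and 3 in control, and had 1.07 in LPS without a call. TBHQ within LPS and within PIC was accompanied by 3 higher genes each, with medians of 0.22 and 0.26. These were, named after their values were seen, the ATP-releasing channel *Panx1* (0.52 and 0.65), the vesicular nucleotide transporter *Slc17a9* (0.54 and 0.70) and the efflux transporter *Abcc4* (0.57 and 0.66), with edgeR adjusted p between 1.25e-05 and 4.98e-11 and 3 of 3 libraries higher. TBHQ alone had 2 higher and 1 lower gene and a median of 0.07. The lower one, *Slc35d2* (−0.54), named after its values were seen, was not called without control replicate 3 or TBHQ replicate 1 (−0.64 to −0.38 over the fits that left out 1 library), and *Panx1* was 0.51 higher there (edgeR adjusted p = 1.37e-05).

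The inflammasome genes that act with or downstream of the P2rx7 channel moved in both directions. Of 9 genes tested among 10, 6 were higher and 2 lower in LPS, and 7 higher and 2 lower in PIC, with medians of 0.62 and 0.59, while TBHQ within LPS had 2 higher and 6 lower (median −0.22) and within PIC 6 lower (median −0.35). The 2 higher within LPS were *Kcnk6* (0.20), not called without LPS replicate 1 or 2 or LPS + TBHQ replicate 1 or 3 (lowest 0.16), and *Txnip* (0.14), not called without LPS replicate 3 or LPS + TBHQ replicate 2 (lowest 0.09). Of the lower genes, *Casp1* within LPS (−0.17) was not called without LPS replicate 2, nor *Txnip* within PIC (−0.13) without PIC + TBHQ replicate 1. The listed gene not tested, *Pycard*, was near the detection limit in every condition, at 1 to 10 counts. Only mRNA was read here, and whether these cells assemble an inflammasome was not tested. *Kcnk6*, *Txnip*, *Casp1* and *Pycard* were named after their values were seen. *Il1b* had 1, 2 and 1 counts in control, too few for a ratio, and 1444, 1144 and 1079 counts in LPS, 200, 187 and 159 in LPS + TBHQ, 3478, 3767 and 3533 in PIC and 410, 372 and 430 in PIC + TBHQ. With TBHQ it was lower by −3.00 within LPS and −3.19 within PIC on the log2 scale (edgeR adjusted p = 8.05e-21 and 4.37e-23, 3 of 3 libraries). The sensor gene *Nlrp3* rose from 21.5 ± 1.66 FPKM in control to 56.8 ± 1.71 in LPS and 157 ± 2.92 in PIC (SD, n = 3), and was −0.22 and −0.63 lower with TBHQ (edgeR adjusted p = 6.96e-05 and 1.76e-15). *Il18* rose by 0.77 in LPS and 0.92 in PIC and was lower with TBHQ by −1.25 and −0.85 (edgeR adjusted p = 0.000399, 2.22e-05, 1.61e-06 and 0.000197). TBHQ alone had 2 higher and 5 lower genes, with a median of −0.23, and *Nlrp3* was 0.86 higher there.

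Signalling genes behind the receptors were read from a pair of lists. In the Gs and cAMP list, 12 of 14 genes were tested, and 2 were higher and 6 lower in both LPS and PIC (medians −0.10 and −0.15). The higher pair was *Pde4b*, a phosphodiesterase that degrades cAMP (0.70 and 2.34, edgeR adjusted p = 4.32e-08 and 6.48e-24), and *Crem*, a cAMP-responsive transcription factor gene (0.95 and 1.18, edgeR adjusted p = 2.52e-09 and 5.83e-12), with 3 of 3 libraries higher. With TBHQ, *Pde4b* differed by 0.10 within LPS (−0.07 to 0.27, not called) and −0.65 within PIC (edgeR adjusted p = 1.86e-09). *Pde4d* was lower in LPS (−0.47) and PIC (−1.10, edgeR adjusted p = 9.76e-08). Of the 6 lower in LPS, *Adcy3* (−0.74) and *Creb1* (−0.16) were both not called without control replicate 3 or LPS replicate 1, nor *Adcy3* without control replicate 2 or LPS replicate 3 (−1.21 to −0.53 and −0.19 to −0.14 over the fits that left out 1 library). TBHQ had 2 higher genes alone, 2 higher and 1 lower within LPS and 4 higher and 1 lower within PIC, where 2 of 12 lies near the 14.2% of all genes higher in TBHQ, with medians of 0.07, 0.11 and 0.09. The 2 calls for TBHQ alone became 4 without LPS replicate 2, LPS replicate 3 or TBHQ replicate 3, and with RLE size factors. *Pde4d*, 1 of the 2 higher within LPS (0.39), lost its call in 11 of 18 fits that left out 1 library (0.33 to 0.43). Of the 4 higher within PIC, *Pde4d* (0.50) and *Prkaca* (0.18) were both not called without PIC replicate 2 (0.34 and 0.14), nor *Pde4d* without PIC + TBHQ replicate 1 or *Prkaca* without PIC + TBHQ replicate 3. In the Gq and Gi list of 10 genes, all tested, 4 were higher and 2 lower in TBHQ, 3 and 2 in LPS, 4 and 3 in PIC, 3 higher within LPS, and 4 and 2 within PIC, several of them near the shares over all genes, and with medians between −0.05 and 0.11. Its 6 calls for TBHQ became 3 without control replicate 3 or TBHQ replicate 2, and its 3 within LPS became 1 without LPS replicate 1. Of its 2 lower in LPS, *Gnai2* (−0.12) was not called without control replicate 1 or LPS replicate 2 (−0.14 to −0.07 over the fits that left out 1 library). Of its 3 lower in PIC, *Gnaq* (−0.12) lost its call in 6 of 18 fits that left out 1 library (−0.16 to −0.06) and *Plcb2* (−0.22) in those without control replicate 3 or PIC replicate 2 (−0.29 to −0.16 over the 18), both of them without PIC replicate 2. Of its 4 higher within PIC, *Gnai2* (0.09) lost its call in 9 of 18 fits that left out 1 library (0.07 to 0.10). The Gq and Gi list also counted *Gna13*, which is of neither class. *Gna13* was among its higher genes in LPS and in PIC and its lower genes with TBHQ within PIC. *Adcy3*, *Creb1*, *Prkaca*, *Gnaq*, *Plcb2*, *Gnai2* and *Gna13* were named after their values were seen.

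Genes known to respond to the treatments were read beside these. *Hmox1*, an Nrf2 target, stood at 194 ± 7.74 FPKM in control and 829 ± 34.5 in TBHQ (SD, n = 3), a log2 difference of 2.09 (edgeR adjusted p = 3.49e-31, 3 of 3 libraries higher), and *Gclm*, another Nrf2 target, rose by 1.82. *Hmox1* also rose in LPS (2.33) and PIC (2.57) and was lower with TBHQ within LPS (−0.30) and within PIC (−0.16), whereas *Gclm* was higher with TBHQ within each (0.98 and 1.10). The inflammatory genes *Nos2* and *Ptgs2* rose by 2.35 and 4.25 in LPS and by 2.88 and 5.80 in PIC, and in TBHQ alone *Ptgs2* rose by 1.35 while *Nos2* was lower by −0.18, a call lost without control replicate 3 or TBHQ replicate 2. With TBHQ within LPS and within PIC, *Nos2* was lower by −0.47 and −0.57 and *Ptgs2* by −0.69 and −1.11.

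Among genes with a mean of at least 50 counts, those whose log2 CPM followed *Adora2b* most closely over the 18 libraries were *Jdp2*, *Pim1* and *Lif* (Pearson r = 0.979, 0.976 and 0.976). *Jdp2* averaged 33.6 ± 0.572 FPKM in control, 66.2 ± 4.11 in LPS, 51.2 ± 2.42 in LPS + TBHQ, 98.9 ± 4.01 in PIC and 74.1 ± 3.11 in PIC + TBHQ. Closest to *P2ry2* were *Fam219a*, *Copg1* and *Plxna1* (0.980, 0.977 and 0.976). *P2rx4* was nearest to *Ctsl*, *Itgam* and *Lyst* (0.965, 0.960 and 0.958), *P2rx7* to *Slc6a6*, *Polr2f* and *Pura* (0.955, 0.950 and 0.938) and *Adora2a* to *Stx6* and *Fcer1g* (0.943 and 0.942). Likeness was lower for *P2ry6*, with *Gsk3a* and *Pgam5*, which were among its 3 closest genes, at 0.841 and 0.826, and for *Entpd1*, with *Cbr4*, *Ccdc134* and *Cpe* at 0.737, 0.737 and 0.717. These r describe libraries that share 6 conditions and are not tests.

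By the coordinates in the deposited annotation, all 9 genes are protein coding and 6 of them lie in neighbouring pairs. *P2rx7* (chr5:122781974-122829495) and *P2rx4* (chr5:122845607-122867801) lie on the plus strand, 16111 bases apart with 1 gene between them, and went in opposite directions in LPS and PIC. *P2ry6* (chr7:100586837-100623856) and *P2ry2* (chr7:100645775-100662073) lie on the minus strand, 21918 bases apart with no gene between, and with TMM scaling only *P2ry2* was called in LPS and PIC, *P2ry6* being lower in PIC with total library size (−0.25). *P2ry14* (chr3:59021276-59061039) and *P2ry13* (chr3:59115313-59118303), on the minus strand, are 54273 bases apart with 1 gene between. *Adora2a* (chr10:75152711-75170618), *Adora2b* (chr11:62139810-62157279) and *Entpd1* (chr19:40600810-40730046) are on the plus strand of separate chromosomes. The submitters' processing notes name GRCm38 and mm39. The deposited positions of *P2rx4*, *P2rx7*, *P2ry2* and *Adora2b* lie apart from the starts of these genes on GRCm38.p6 given with the sequences, so they are not GRCm38 positions and the coordinates are not interchangeable.

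Promoter windows are shown for 4 genes that changed in both stimuli, so that the sequence next to each start can be read beside the levels. The table of RefSeq (GRCm38.p6) windows used here, each of 300 bases with 250 before and 50 after a start, held 13 windows for 7 of the 9 genes and did not cover *Adora2a* and *P2ry6*. Each was searched on both strands for GGG and CC separated by any 5 bases (NF-κB), TTTC and TTTC separated by any 2 bases (interferon-stimulated response element), TGACNNNGC (antioxidant response element) and TGACGTCA (cAMP response element), which occur in 50.8%, 3.44%, 12.4% and 1.79% of all 32851 windows. Sequences run 5′ to 3′ on the gene's strand in lower case, with matches in capitals. The windows are chr5:122707294-122707593 on the plus strand for *P2rx4*, chr5:122643677-122643976 on the plus strand for *P2rx7*, chr7:101012004-101012303 on the minus strand for *P2ry2* and chr11:62248734-62249033 on the plus strand for *Adora2b*. Counting from the window's first base, *P2rx4* holds the antioxidant response element letters at 100 to 108 and the NF-κB letters at 191 to 200 and, overlapping on the other strand, at 192 to 201. *P2rx7* holds the antioxidant response element letters at 163 to 171 and the NF-κB letters at 236 to 245, both on the other strand. *P2ry2* holds the NF-κB letters at 182 to 191. *Adora2b* holds the NF-κB letters at 152 to 161 and 189 to 198, at 190 to 199 on the other strand, which overlaps the preceding match, and at 206 to 215 on the other strand. *P2rx7* and *P2ry2* each have 1 further window, not shown, in which the search found no match for *P2rx7* and the NF-κB letters at 127 to 136 for *P2ry2*. Among the genes not shown, *P2ry14*, which was barely detected, has 4 windows. In 1 of them the NF-κB letters lie at 148 to 157 on the other strand. The search found no match in the 1 window of *P2ry13* or the 2 windows of *Entpd1*. A match is a description of letters, and binding was not measured.
P2rx4: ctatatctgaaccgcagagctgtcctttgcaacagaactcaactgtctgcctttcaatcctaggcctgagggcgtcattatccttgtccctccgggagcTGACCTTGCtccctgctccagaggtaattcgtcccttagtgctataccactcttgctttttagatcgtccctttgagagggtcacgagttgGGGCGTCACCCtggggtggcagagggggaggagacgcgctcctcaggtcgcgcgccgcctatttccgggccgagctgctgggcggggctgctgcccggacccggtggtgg
P2rx7: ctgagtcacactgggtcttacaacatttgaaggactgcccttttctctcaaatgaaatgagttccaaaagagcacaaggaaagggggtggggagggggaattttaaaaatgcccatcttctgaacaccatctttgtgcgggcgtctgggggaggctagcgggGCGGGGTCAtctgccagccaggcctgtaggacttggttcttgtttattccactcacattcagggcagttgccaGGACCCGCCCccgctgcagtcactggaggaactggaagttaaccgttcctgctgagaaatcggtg
P2ry2: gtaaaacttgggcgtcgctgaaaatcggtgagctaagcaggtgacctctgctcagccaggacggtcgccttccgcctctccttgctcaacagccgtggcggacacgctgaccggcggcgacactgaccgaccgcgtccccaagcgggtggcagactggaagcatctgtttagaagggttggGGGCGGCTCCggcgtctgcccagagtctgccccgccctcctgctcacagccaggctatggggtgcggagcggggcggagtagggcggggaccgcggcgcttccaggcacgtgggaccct
Adora2b: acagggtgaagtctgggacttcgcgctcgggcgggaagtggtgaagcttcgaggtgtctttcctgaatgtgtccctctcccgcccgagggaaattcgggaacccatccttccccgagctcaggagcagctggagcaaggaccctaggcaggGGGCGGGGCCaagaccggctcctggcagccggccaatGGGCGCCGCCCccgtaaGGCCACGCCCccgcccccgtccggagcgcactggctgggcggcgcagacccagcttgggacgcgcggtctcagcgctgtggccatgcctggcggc

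By the study's description, control cells were kept in medium only over the 12 h of the stimulated groups, whereas TBHQ cells, whose TBHQ came from a DMSO stock, were assessed at 4 h. TBHQ, time and DMSO therefore cannot be told apart in the comparison of TBHQ with control, nor can TBHQ, DMSO and the 4 h that preceded the stimulus in the comparisons within LPS and within PIC. The study describes its libraries as strand-specific, but use of strand in counting was not given in the sources used here. Reads of *P2ry6* and the antisense gene *Gm44545* (0 to 7 counts), and of *P2ry13* or *P2ry14* and the antisense gene *Med12l* (0 to 5 counts), cannot be told apart.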

How the data were processed

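RNA was sequenced from 18 libraries of RAW 264.7 cells in 6 conditions of 3. The authors deposited raw read counts per gene, FPKM made from those counts, and each gene's length. The submitters' processing notes name HISAT2 2.0.5, StringTie 1.3.3b and featureCounts 1.5.0-p3, with the builds GRCm38 and mm39. The deposited FPKM matched values recomputed from the counts up to a constant of 0.943 to 1.12 per library. Counts were filtered with filterByExpr (minimum count 10), scaled by TMM and tested with edgeR 4.0.16 (glmQLFit and glmQLFTest, 1 fit over 18 libraries, common dispersion 0.00192) in R 4.3.3, with Benjamini-Hochberg adjustment over 13691 genes and a threshold of 0.05. The 9 comparisons were each treatment against control, TBHQ within each stimulus, PIC against LPS and the interaction.

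Alternatives were DESeq2 1.42.0, limma 3.58.1 on log2(FPKM + 1) and log2(FPKM + 0.1), fits of the compared conditions only, RLE size factors, total library size, no filter beyond 1 count, a mean of at least 50 counts, 3 other thresholds, FPKM recomputed with TMM, the replicate number as a factor and leaving out each library. Named list genes were up to 4 per list with an adjusted p below 0.05 and an absolute log2 difference above 1 in LPS or PIC against control, largest first, plus those passing both limits in a comparison with TBHQ. For each gene tested the 3 most alike were taken, together with 5 treatment controls, and a few genes these rules select are not reported here. Members and lists were chosen with earlier results of these data known. Scripts were tested on simulated data. Replicates within a condition differed beyond sampling noise in all pairs. Floors and intervals of single counts cover counting error only. Sequences came from RefSeq, read with Python 3.11.15, and figures were drawn with matplotlib 3.10.9.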

Additional observations from a re-analysis of the deposited data

Results flagged for a closer look

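The TBHQ difference was compared between PIC and LPS by an edgeR interaction term for 80 genes. These were the tested members, all tested list genes, the treatment controls and the most alike genes. List genes outside the rule for named genes were added after their values were seen. Of the 80, 5 differed, where 0.833% and 1.01% of the 13691 genes tested were called in the positive and negative direction. None of the 5 was among the 7 receptor and ectoenzyme genes tested. Values are the log2 difference with TBHQ within PIC minus that within LPS. A negative value means that the TBHQ difference was lower within PIC than within LPS, and does not compare the levels themselves. *Pde4b* had −0.75 (95% interval −0.97 to −0.53, edgeR adjusted p = 3.32e-05), from 0.10 within LPS and −0.65 within PIC. *Ptgs2* had −0.42 (−0.56 to −0.29, edgeR adjusted p = 0.000134), from −0.69 and −1.11. *Nlrp3* had −0.41 (−0.52 to −0.30, edgeR adjusted p = 1.22e-05), from −0.22 and −0.63. *Slc28a2* had −0.32 (−0.50 to −0.15, edgeR adjusted p = 0.0433), from −0.90 and −1.22. That call was lost with total library size (−0.28), with limma on either FPKM scale, and without any 1 of LPS replicate 1 or 3, PIC replicate 1 or 2, TBHQ replicate 2, LPS + TBHQ replicate 1, 2 or 3 and PIC + TBHQ replicate 2 or 3, where the value lay between −0.34 and −0.28. *Txnip*, which encodes a thioredoxin-binding protein and is named after its values were seen, had −0.27 (−0.39 to −0.15, edgeR adjusted p = 0.01), from 0.14 and −0.13, and −0.23 without LPS + TBHQ replicate 2, where it was not called.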

How the results depend on the processing

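Over 63 log2 differences (7 genes in 9 comparisons), DESeq2 kept direction and call in 62 and lost 1 call, RLE size factors kept 62 and turned 1 sign, and total library size kept 51, added 9 calls and turned 3 signs. For list genes and treatment controls, only differences that edgeR had called were followed, so no call could be added. Of these, DESeq2 kept 247 and lost 14 calls, and RLE size factors kept 257 and lost 4. Total library size kept 235, lost 25 and turned 1 sign, and limma on either FPKM scale kept 246 and lost 15. Where a member's sign turned, the difference was not called, and the cause was not tested. With total library size these were *P2ry6* in LPS against control (−0.01), *Entpd1* in PIC against control (−0.02) and *P2rx4* in PIC against LPS (−0.03), and, among list genes, whose alternatives were added after seeing the data along with the list counts, *Adcy7* in PIC + TBHQ against control (−0.02), which was called higher with TMM (0.13, edgeR adjusted p = 0.00204) and lost that call, the cause not being tested. For *Adora2b* the interaction estimate was −0.00 with the compared conditions only, −0.00 with RLE size factors, −0.01 with no filter and −0.03 with limma on log2(FPKM + 1). Total library size called 5 members in LPS + TBHQ against control, 5 in PIC + TBHQ against PIC and 5 in PIC against LPS. Of all genes tested, 6314, 4837 and 5359 were called in these comparisons with that scaling. With TMM, 2896 of all genes tested were higher and 3087 lower in the first, 2167 and 2118 in the next and 2035 and 1752 in the last. Requiring an adjusted p below 0.01 and an absolute log2 difference above 2 in edgeR left 0 members in TBHQ, 1 in LPS, 2 in PIC, 0 in LPS + TBHQ and 2 in PIC + TBHQ against control, and 0 within LPS, 0 within PIC and 0 in PIC against LPS. Of all genes tested, 26, 224, 489, 132 and 295 passed it against control, and 53, 41 and 42 in the last 3. An adjusted p below 0.05 with an absolute log2 difference above 1 left 0, 2, 3, 1 and 3 members against control, and 0, 0 and 1 in the last 3. Of all genes tested, 273, 1022, 1805, 721 and 1268 passed it against control, and 254, 326 and 252 in the last 3. An adjusted p below 0.01 left 1 member within LPS, and 2178 of all genes tested. Fewer calls at these thresholds follow from their construction. Mean FPKM of *P2rx7* in PIC + TBHQ was 3.29 when recomputed from TMM totals, and 3.32 as deposited, against an SD of 0.0136.

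Leaving out each library in turn gave 2 to 3 called members in TBHQ, 4 to 5 in LPS, 5 in PIC, 3 to 5 in LPS + TBHQ and 5 to 7 in PIC + TBHQ against control, 1 to 3 within LPS, 2 to 3 within PIC, 3 in PIC against LPS and 0 for the interaction. Signs turned in some of these for uncalled differences, with ranges of −0.84 to 0.28 for *Adora2a* in TBHQ, −0.00 to 0.15 for *P2ry6* in LPS, −0.12 to 0.02 for *P2ry6* in PIC, −0.08 to 0.67 for *Entpd1* in PIC, −0.33 to 0.30 for *Entpd1* in LPS + TBHQ against control and −0.50 to 0.25 for *Entpd1* in PIC against LPS. Interaction ranges were −0.04 to 0.08 for *P2rx4*, −0.15 to 0.01 for *P2ry6*, −0.58 to 0.41 for *Adora2a* and −0.17 to 0.15 for *Adora2b*. Counts of *Adora2a* and *Entpd1* limit what can be told of them at this depth.

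Pairing of the libraries by replicate number was weak at most. Deviations from the condition means had a median correlation of 0.03 over 45 same-number pairs (−0.07 to 0.14) and −0.01 over 90 other pairs. Of 18 libraries, 11 correlated best with their own number, and the number to expect without pairing was not computed. With the replicate block edgeR called 3 members in TBHQ, 5 in LPS, 5 in PIC, 4 in LPS + TBHQ and 6 in PIC + TBHQ against control, 2 within LPS, 3 within PIC, 3 in PIC against LPS and 0 for the interaction. The block added *P2rx4* in TBHQ (edgeR adjusted p = 0.0476) and *Adora2a* in LPS + TBHQ against control (1.24, edgeR adjusted p = 0.0462) and changed no other call among the members.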
